A study of Homo sapiens with 32 samples.

Results

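The 10 genes described here act in cell survival signalling and were followed by RNA sequencing of HEK293, a human cell line from embryonic kidney. The genes were PHLDA1, PHLDA2 and PHLDA3, the anti-apoptotic genes BCL2, BCL2L1 and MCL1, and the BH3-only genes BCL2L11, PMAIP1, BBC3 and BMF. They were taken by gene name, and 10 of the 57773 genes in each count table were found under these names. All cells of all groups, controls included, were transiently transfected with an expression plasmid for the angiotensin II receptor type 1 (AT1R) and held in DMEM without fetal calf serum before stimuli were added. For 6 h or 24 h the cells then had no stimulus (control), angiotensin II at 1 nmol/l (AII), epidermal growth factor at 10 µg/l (EGF), or both at these concentrations (AII+EGF). There were 4 libraries per condition, of which 3 of AII+EGF were used after 24 h. Transient transfection leaves a mixture of cells with and without plasmid, and the share of transfected cells is not given in the sources used here. The labels do not state that libraries came from separate cultures, so p-values measure the spread between these libraries, which may be technical. In bulk RNA, fewer cells of a type and less RNA per cell cannot be told apart.

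BCL2-family proteins decide whether the outer mitochondrial membrane stays closed. BCL2, BCL2L1 (BCL-XL) and MCL1 hold the pore-forming proteins BAX and BAK1 in check, whereas BH3-only proteins such as BIM (BCL2L11), NOXA (PMAIP1), PUMA (BBC3) and BMF bind these guardians and release the pore formers, so that caspases are activated. Growth factor signalling through ERK is known to act on several of them, and PMAIP1, BBC3 and PHLDA3 are classical target genes of p53. The PHLDA proteins are small proteins built around a pleckstrin homology domain. PHLDA3 competes with AKT for membrane lipids, and PHLDA2 is an imprinted gene that restrains placental growth.

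Libraries held 3881841 to 8540815 counts after 6 h and between 6646227 and 33070903 after 24 h. Genes of U1 small nuclear RNA took at most 0.301% of a library after 6 h but 8.92% to 57.2% after 24 h, and the biological coefficient of variation was 10.6% and 29.1%. Levels are given as FPM, fragments scaled to library size after TMM normalization, computed for each time point on its own, so that FPM values are not compared between 6 h and 24 h. AGTR1, the gene of the transfected receptor, was counted at 950.1 to 1568 FPM after 6 h and at 369 to 685 FPM after 24 h. Among markers of the cell line, NEFL, NEFM and VIM were abundant (at least 261 FPM in every library after 6 h) and PAX2 was near 0 (at most 1.16 FPM). The remaining markers of the cell line were low after 6 h, with LHX1 at 4.72 to 10.38 FPM, KRT8 at 7.35 to 15.49 and KRT18 at 2.10 to 8.40. Of 7 markers of other cell types, CD3E had 0 counts in every library and PTPRC, CDH5, DCN and ALB stayed at or below 1.05 FPM, while COL1A1 and COL3A1 were counted at 10.8 to 32.6 FPM after 6 h. After 6 h the sum of these 7 markers was 32.9 to 64.1 FPM in control, 36.2 to 39.1 with AII, 27.0 to 36.0 with EGF, and between 34.1 and 44.7 with AII+EGF. Of the 2 tested, 0 were called in edgeR (log2 differences of -0.43 and -0.29 with EGF), whereas the cell line's NEFM was called higher with EGF and AII+EGF and KRT18 with AII+EGF. The part of these markers in the results was not tested.

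The promoters of BCL2 and BMF are shown because these genes gave the clearest opposite responses to EGF. Sequences are from RefSeq (GRCh38.p14), cover the 250 bases before a transcription start, and are written 5′ to 3′ on the strand of the gene, which is the minus strand for both. BMF has 2 listed starts. Capitals mark a match to the CArG box, the motif of serum response factor.
BCL2, chr18:63319770-63320019: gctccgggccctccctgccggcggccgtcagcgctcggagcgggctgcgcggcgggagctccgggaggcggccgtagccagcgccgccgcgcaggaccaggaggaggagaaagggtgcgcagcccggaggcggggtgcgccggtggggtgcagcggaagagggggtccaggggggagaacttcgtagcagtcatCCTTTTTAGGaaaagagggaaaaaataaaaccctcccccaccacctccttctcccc
BMF, chr15:40108880-40109129: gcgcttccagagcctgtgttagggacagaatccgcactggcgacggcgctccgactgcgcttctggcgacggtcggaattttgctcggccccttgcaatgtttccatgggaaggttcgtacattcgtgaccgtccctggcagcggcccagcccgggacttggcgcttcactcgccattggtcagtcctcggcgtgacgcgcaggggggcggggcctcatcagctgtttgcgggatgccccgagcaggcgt
BMF, chr15:40106967-40107216: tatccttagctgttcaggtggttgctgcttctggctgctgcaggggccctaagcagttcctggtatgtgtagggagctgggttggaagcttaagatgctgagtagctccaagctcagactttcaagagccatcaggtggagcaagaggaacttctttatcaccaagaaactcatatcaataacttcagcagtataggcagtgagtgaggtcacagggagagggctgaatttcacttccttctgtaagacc

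Promoter windows of 300 bases, from 250 before to 50 after the start, were found for 7 of the 10 genes in 9 windows. No entry was matched for PHLDA2, PHLDA3 and MCL1. Both strands were searched for the CArG box, TGANTCA (AP-1), GCGNGGGCG (EGR), CCGGAAG (ETS), TGACGTCA (CRE) and GTAAACA (FOXO). The CArG box of BCL2, CCTTTTTAGG, reads as a match on both strands and lies at -56 to -47, counted from the start, and 1.29% of 35116 promoters held a CArG box. None of the motifs was found in the 2 windows of BMF. BCL2L11 had an EGR match at -79 to -71 and a FOXO match at -223 to -217, motifs that 9.43% and 3.42% of promoters held. BBC3 had an AP-1 match at -113 to -107 (7.71% of promoters), and BCL2L1 an ETS match at 10 to 16 after the start (10.3% of promoters). The CRE motif (1.85% of promoters) was found in none of the 9 windows. These matches describe letters and show neither binding nor its absence. In the 250 bases shown, the first BMF sequence held 26 CG dinucleotides and the second held 0, against 24 in that of BCL2.

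In unstimulated cells the BH3-only gene PMAIP1 and its counterpart MCL1 had the highest levels per kb of exon. After 6 h PMAIP1 stood at 29.3 ± 1.49 FPM per kb and MCL1 at 26.2 ± 2.16 (SD, n = 4 for all levels per kb), and their libraries overlapped. BCL2L11 (12.2 ± 0.773), PHLDA3 (11.8 ± 2.12) and BBC3 (10.8 ± 3.10) followed as a group of overlapping levels, set apart from MCL1 above and from BMF below. BMF (3.87 ± 0.253), BCL2L1 (3.47 ± 0.575) and PHLDA2 (2.00 ± 1.20 FPM per kb) came next, each overlapping its neighbour. BCL2 at 0.899 ± 0.114 and PHLDA1 at 0.769 ± 0.122 FPM per kb were lowest and overlapped each other. After 24 h the order was the same except for BBC3, which stood before BCL2L11 and PHLDA3 with overlapping libraries. The overlaps changed, however. PMAIP1 (26.5 ± 5.33 FPM per kb) then lay above MCL1 (11.7 ± 1.28) without overlap, as did BCL2 (0.908 ± 0.190) above PHLDA1 (0.322 ± 0.191). PHLDA2 and BCL2, apart after 6 h, then overlapped. Exon lengths come from a GENCODE annotation of GRCh37 and not from the Ensembl archive used for counting, so levels per kb are approximate.

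**Figure D1:**
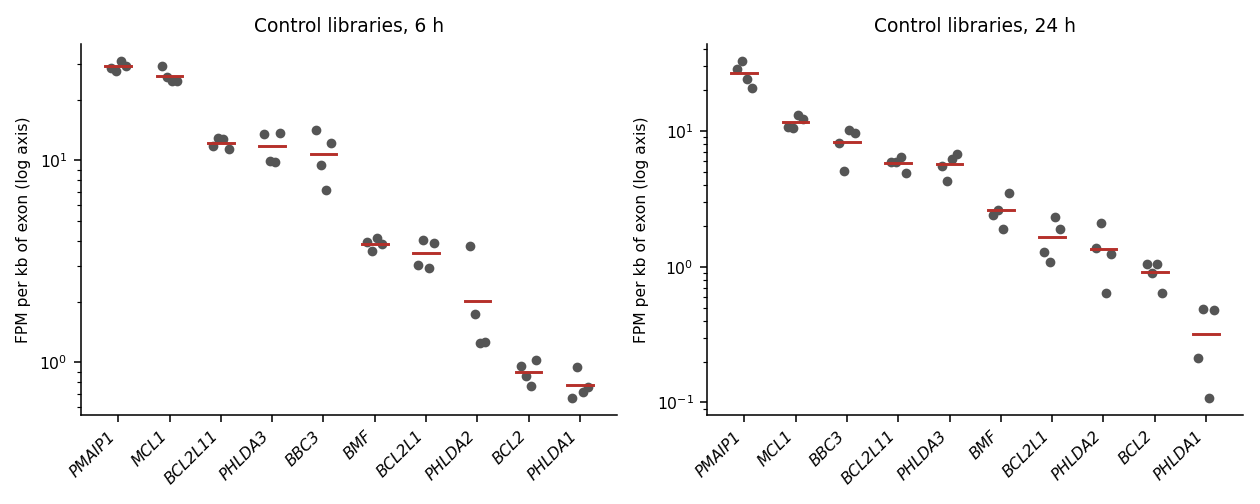
Level of each gene in control libraries, as FPM per kb of exon on a log axis, after 6 h (left) and 24 h (right). Points are the 4 libraries and bars their mean. PMAIP1 and MCL1 lie highest, and BCL2 and PHLDA1 lowest, at both time points.

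Whether EGF or AII alters these genes was asked first after 6 h. EGF about doubled BCL2 and about halved BMF, with or without AII. PHLDA2 rose with AII+EGF, but a difference of AII+EGF from EGF was not shown for it (adjusted p = 0.677, edgeR). A gene was called at a Benjamini-Hochberg FDR under 0.05 over all genes tested in edgeR's quasi-likelihood test, a fold change above 1.5 and a mean above 5 FPM (that of control if the gene was lower, that of the stimulated cells if higher). With EGF, 2 of the 10 genes were called, against 1.73% of the 18618 genes tested (1.04% higher, 0.688% lower). With AII+EGF, 3 were called, against 1.95% (1.39% higher, 0.564% lower). Both comparisons use the same control libraries. With the FDR alone, 3 genes were higher and 1 lower with EGF (background 3.6% and 2.37%), and 4 were higher and 1 lower with AII+EGF (4% and 2.11%). All 10 genes passed the filter on low counts at both time points.

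BCL2 (ENSG00000171791, chr18:60790579-60987361 in GRCh37, minus strand) is the founding guardian of the mitochondrial membrane. Its level was 12.03, 10.8, 9.58 and 12.9 FPM in control, 13.7, 14.9, 14.3 and 13.1 with AII, 20.02, 22.9, 26.4 and 24.0 with EGF, and 26.3, 21.2, 19.9 and 21.8 with AII+EGF. Every EGF and AII+EGF library lay above every control and AII library, and the AII libraries lay just above control without overlap. With EGF BCL2 rose 2.06-fold (log2 fold change 1.04, SE 0.129, adjusted p = 1.62e-05, edgeR). With AII+EGF it rose 1.96-fold (log2 fold change 0.97, SE 0.131, adjusted p = 3.80e-05, edgeR). The difference with AII alone was 0.31 on the log2 scale (95% interval 0.02 to 0.60, adjusted p = 0.987, edgeR), and AII+EGF differed from EGF by -0.07 (interval -0.31 to 0.18). The labels number the libraries from 1 to 16, and the log2 ratio of the EGF mean to the control mean was 0.91 in libraries 1 to 8 and 1.16 in libraries 9 to 16. The promoter shown above is the one with the CArG box.

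BMF (ENSG00000104081, chr15:40380091-40401093, minus strand) encodes the BH3-only protein that is held at the cytoskeleton in attached cells. It was counted at 21.5, 19.3, 22.6 and 21.0 FPM in control, at 17.1, 21.0, 14.8 and 18.4 with AII, at 9.58, 11.8, 9.78 and 9.94 with EGF, and at 8.58, 10.7, 8.20 and 10.1 with AII+EGF. Libraries with EGF, alone or with AII, all lay below all others. BMF fell by 51.1% with EGF (log2 fold change -1.03, SE 0.135, adjusted p = 2.95e-05, edgeR) and fell by 55.5% with AII+EGF (log2 fold change -1.17, SE 0.138, adjusted p = 6.80e-06, edgeR). With AII alone the log2 difference was -0.24 (95% interval -0.51 to 0.03, adjusted p = 0.987, edgeR). The log2 ratio of the means, EGF to control, was -0.93 in libraries 1 to 8 and -1.14 in libraries 9 to 16. An antisense gene, BMF-AS1, overlaps 8.46% of its exon bases.

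Since the guardian rose and the BH3-only gene fell after 6 h, the ratio of BCL2 to BMF in FPM was then 0.424 to 0.614 in control libraries, 1.94 to 2.69 under EGF and 1.98 to 3.06 under AII+EGF. With AII it was 0.710 to 0.966, between control and EGF, but neither gene was shown to differ with AII (adjusted p = 0.987 for each, edgeR). After 24 h control libraries, at 0.427 to 1.29, overlapped those under EGF (1.28 to 1.75), AII+EGF (0.871 to 1.61) and AII (0.469 to 1.11). FPM is not scaled to gene length, so the ratio does not say which gene had more transcripts. Per kb of exon after 6 h, mean levels of BCL2 and BMF were 0.899 and 3.87 FPM in control and 1.85 and 1.89 with EGF. Both genes were picked because they were called in opposite directions, so the separation under EGF and AII+EGF after 6 h follows from that choice. This ratio is a description of the genes called and was not tested.

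PHLDA2 (ENSG00000181649, chr11:2949503-2950650, minus strand) was a gene of few counts, with 6 to 36 per library after 6 h. Its level was 3.47, 1.59, 1.15 and 1.16 FPM in control, 2.47, 2.08, 1.67 and 3.94 with AII, 3.25, 3.59, 2.53 and 3.64 with EGF, and 6.25, 4.54, 5.27 and 5.41 with AII+EGF. The AII+EGF libraries lay above all other libraries, and EGF overlapped control through control replicate 1. PHLDA2 rose 3.02-fold with AII+EGF (log2 fold change 1.59, SE 0.313, adjusted p = 0.00213, edgeR), at a mean of 5.37 FPM, just above the limit. With EGF alone the log2 difference was 0.88 (SE 0.33, adjusted p = 0.118, edgeR), and it passed the FDR without control replicate 1 (1.31, adjusted p = 0.0186, edgeR). The mean of PHLDA2 with EGF was 3.25 FPM, below the limit, so it could not be called there at any FDR. The direct difference of AII+EGF from EGF was 0.71 (95% interval 0.15 to 1.28, unadjusted p = 0.0151, adjusted p = 0.677, edgeR), so a difference between these stimuli was not shown over all genes tested. The log2 ratio of the means of AII+EGF and control was 1.09 in libraries 1 to 8 and 2.21 in libraries 9 to 16. AGTR1 moved with the same condition, by 0.34 on the log2 scale with AII (adjusted p = 0.987, edgeR) and 0.45 with AII+EGF (adjusted p = 0.000498, edgeR), with no change past 1.5-fold, and its part was not tested.

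**Figure D2:**
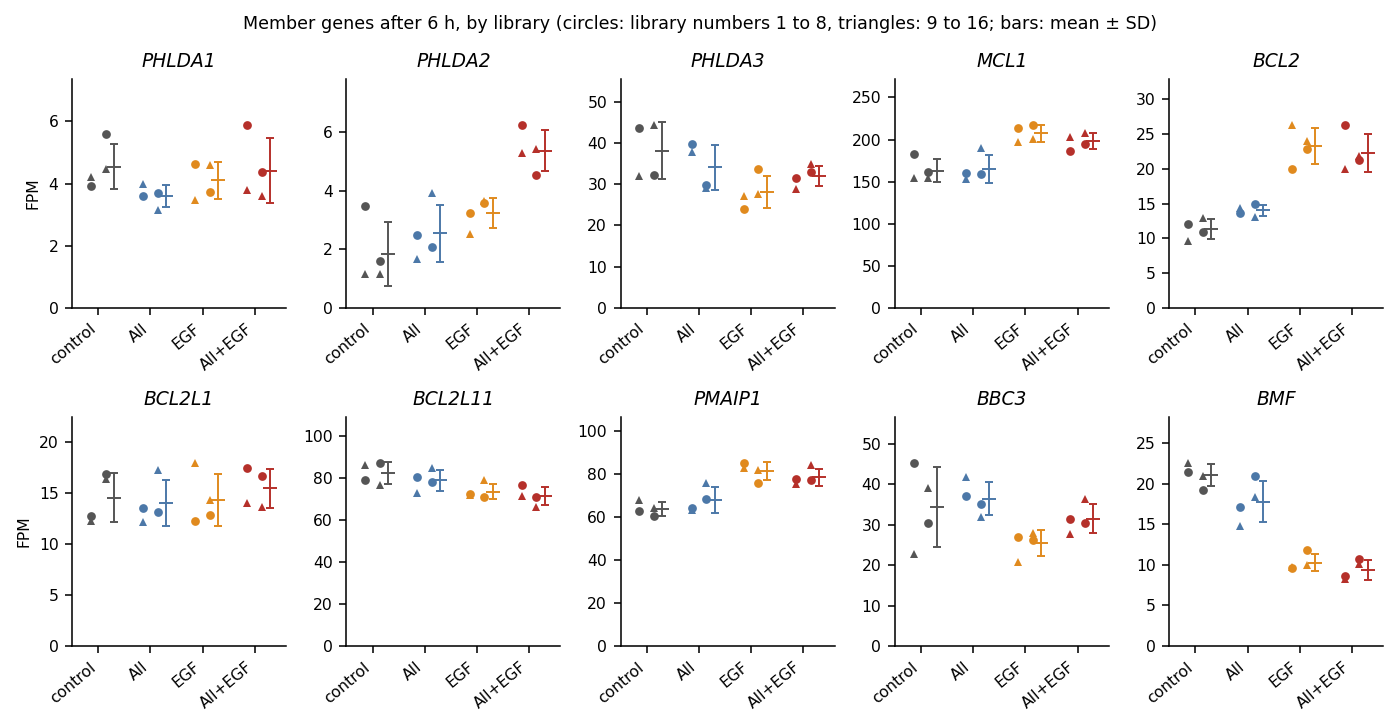
FPM of the 10 genes in each library after 6 h, by condition, with circles for library numbers 1 to 8, triangles for 9 to 16, and mean ± SD (n = 4) beside them. BCL2 is higher and BMF lower in every library with EGF or AII+EGF than in every control library, and PHLDA2 is highest with AII+EGF.

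MCL1 and PMAIP1, a guardian with a short-lived protein and the BH3-only protein that binds it, rose together by small amounts. MCL1 (ENSG00000143384, chr1:150533371-150552214, minus strand) was counted at 183, 161, 154 and 155 FPM in control, at 159.8, 159, 153 and 190.0 with AII, at 213, 218, 197 and 201 with EGF and at 187, 195, 204 and 208 with AII+EGF. Libraries with EGF or AII+EGF lay above control, with only the AII value of 190.0 reaching them. MCL1 rose by 27.1% with EGF (log2 fold change 0.35, SE 0.0767, adjusted p = 0.00684, edgeR) and by 21.7% with AII+EGF (log2 fold change 0.28, adjusted p = 0.0278, edgeR). ADAMTSL4-AS1 on the same strand overlaps 5.27% of the exon bases of MCL1, and ADAMTSL4 on the other strand 0.691%.

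PMAIP1 (ENSG00000141682, chr18:57567228-57571537, plus strand) was at 62.9, 60.5, 68.2 and 64.3 FPM in control, 64.3, 68.5, 63.2 and 76.1 with AII, 85.4, 75.9, 82.9 and 82.1 with EGF and 77.7, 77.2, 75.4 and 84.4 with AII+EGF. EGF and AII+EGF did not overlap control. PMAIP1 rose by 27.5% with EGF (log2 fold change 0.35, SE 0.0761, adjusted p = 0.00581, edgeR) and by 23.0% with AII+EGF (log2 fold change 0.30, adjusted p = 0.0189, edgeR). Both genes stayed under 1.5-fold. With AII+EGF, MCL1 lost the FDR without control replicate 2, 3 or 4 or AII+EGF replicate 2, 3 or 4 (adjusted p up to 0.0912, edgeR), and PMAIP1 lost it without control replicate 2 or AII+EGF replicate 4 (up to 0.0702).

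PHLDA3 and BBC3, the other p53 target genes of the set, had lower means with EGF but missed the FDR. PHLDA3 (ENSG00000174307, chr1:201433406-201438365, minus strand) was at 43.7, 32.4, 32 and 44.5 FPM in control and at 24.1, 33.6, 27.1 and 27.8 with EGF, groups that overlapped through EGF replicate 2, and at 29.1 to 39.8 with AII. Another gene on the same strand covers 18.4% of its exon bases, so that its counts are less certain. The log2 difference was -0.43 (SE 0.131, adjusted p = 0.0507, edgeR), and DESeq2 gave an adjusted p of 0.028. With AII+EGF it was 31.5, 32.9, 28.8 and 34.9 FPM, a log2 difference of -0.25 (adjusted p = 0.309, edgeR).

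BBC3 (ENSG00000105327, chr19:47724079-47736023, minus strand) was at 45.3, 30.3, 22.8 and 39.0 FPM in control, a wide spread, and at 27.0, 26.3, 20.7 and 28.0 with EGF (log2 difference -0.42, SE 0.153, adjusted p = 0.111, edgeR). It was at 31.5, 30.5, 27.7 and 36.2 FPM with AII+EGF (-0.12, adjusted p = 0.744, edgeR) and at 32 to 41.7 with AII. Every condition overlapped control, whose replicate 3 lay among the EGF values. MIR3191 on the other strand overlaps 2.51% of its exon bases.

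BCL2L11 (ENSG00000153094, chr2:111876955-111926021, plus strand), the gene of BIM, was at 79.1, 87.2, 86.0 and 76.6 FPM in control, 72.2, 71.0, 71.8 and 79.1 with EGF and 76.5, 70.8, 71.6 and 66.3 with AII+EGF, against 72.7 to 84.8 with AII. AII+EGF lay below control in every library, and EGF overlapped it. The log2 difference was -0.16 with EGF (95% interval -0.32 to -0.01, adjusted p = 0.227, edgeR) and -0.21 with AII+EGF (interval -0.36 to -0.05, adjusted p = 0.117, edgeR), so both intervals lie within 1.5-fold. MIR4435-2HG on the other strand overlaps 10.8% of the exon bases of BCL2L11. BCL2L1 (ENSG00000171552, chr20:30252255-30311792, minus strand) ranged from 12.2 to 18.0 FPM over all 16 libraries, with log2 differences of -0.03 with EGF (interval -0.35 to 0.29) and 0.07 with AII+EGF (interval -0.25 to 0.39). The antisense gene ABALON overlaps 41.3% of its exon bases, and since the strand setting of the counting is not stated, reads of the pair cannot be told apart. PHLDA1 (ENSG00000139289, chr12:76419227-76425556, minus strand), known as an immediate target of growth factor signals, ranged from 3.15 to 5.90 FPM with 12 to 38 counts per library. Its log2 difference was -0.16 with EGF (interval -0.61 to 0.30) and -0.07 with AII+EGF (interval -0.52 to 0.39), and the antisense gene PHLDA1-AS1 overlaps 9.35% of its exon bases.

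**Figure D3:**
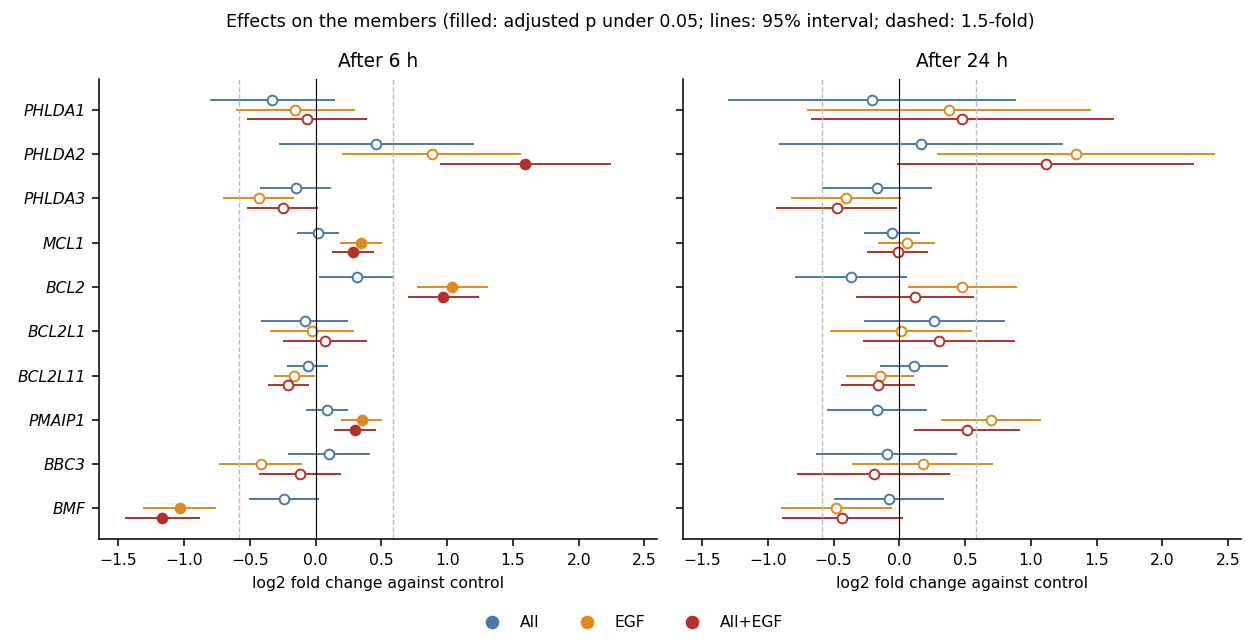
Log2 fold changes of the 10 genes against control with AII, EGF and AII+EGF after 6 h (left) and 24 h (right), with 95% intervals from edgeR. Filled points passed an adjusted p of 0.05 and dashed lines mark 1.5-fold. After 6 h BCL2, MCL1, PMAIP1 and BMF are filled for EGF and AII+EGF and PHLDA2 for AII+EGF, and no point is filled after 24 h.

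AII alone and its addition to EGF called none of the 10 genes after 6 h in edgeR (0 of 10 each, background 0%). BCL2 with AII was the single gene at an unadjusted p under 0.05, and PHLDA2 the single gene for AII+EGF against EGF, so that 1 of 10 stood against 4.54% and 7.26% of all genes tested. DESeq2 also called 0 in both. The interaction, defined on the log2 scale as what AII+EGF gave beyond the added effects of AII and of EGF, called 0 of 10 (background 0%, DESeq2 0), with BCL2 alone under an unadjusted p of 0.05, which 8.01% of all genes passed (unadjusted p = 0.0485, difference -0.38, 95% interval -0.76 to -0.00218, adjusted p = 0.621, edgeR). For PHLDA2 the interaction was 0.25 (interval -0.68 to 1.19), an interval too wide to tell addition from a larger joint effect.

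After 24 h none of the 10 genes was called in any comparison, in libraries with a wider spread. With EGF, 0 of 10 were called against a background of 0.0316% (0 called by DESeq2), and with AII+EGF 0 of 10 against 0.0271% (0 by DESeq2). At an unadjusted p under 0.05 in edgeR there were 4 of the 10 genes with EGF and 2 with AII+EGF, against 8.48% and 5.4% of the 22174 genes tested. AII, AII+EGF against EGF and the interaction each called 0 (background 0%, 0 by DESeq2), with 0 of the 10 at an unadjusted p under 0.05, against 2.37% to 3.37% of all genes.

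PMAIP1 came nearest after 24 h. It was counted at 62.3, 71.8, 52.6 and 44.9 FPM in control, 57.5, 60.6, 39.1 and 48.4 with AII, 94.2, 128, 85.6 and 67.2 with EGF, and 98.6, 72.3 and 76.6 with AII+EGF. Libraries 1 to 8 lay higher than libraries 9 to 16 in each condition, EGF replicate 4 overlapped control, and AII+EGF did not overlap it. The log2 difference was 0.69 with EGF (SE 0.182, adjusted p = 0.233, edgeR) and 0.51 with AII+EGF (SE 0.195, adjusted p = 0.85, edgeR). With the run of library numbers as a block it was called in both (0.69, adjusted p = 0.00906, and 0.59, adjusted p = 0.0488, edgeR), and without the filter on low counts it was called with EGF (adjusted p = 0.00205). In the deposited 24 h counts, all used columns of libraries 1 to 8 are named as filtered. Of libraries 9 to 16, only the column of AII+EGF replicate 3 is. The run of library numbers and this naming nearly coincide, and their parts were not tested.

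BCL2 was at 13.1, 11.3, 13.3 and 8.10 FPM in control after 24 h, 6.91, 9.71, 7.46 and 11.6 with AII, 14.8, 14.9, 16.8 and 17.2 with EGF, and 15.48, 9.69 and 11.8 with AII+EGF. EGF libraries all lay above control, and AII+EGF libraries overlapped it. The log2 difference was 0.48 with EGF (SE 0.20, adjusted p = 0.514, edgeR) and 0.12 with AII+EGF (95% interval -0.33 to 0.57). BMF was at 13.2, 14.2, 10.3 and 18.97 FPM in control, 8.43, 8.90, 13.1 and 9.95 with EGF and 9.63, 11.1 and 10.8 with AII+EGF, groups that overlapped control. Its log2 difference was -0.48 with EGF (adjusted p = 0.518, edgeR) and -0.43 with AII+EGF (adjusted p = 0.937).

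PHLDA2 had 5 to 75 counts per library after 24 h, at 1.27, 1.94, 0.584 and 1.15 FPM in control, 1.53, 1.64, 1.74 and 0.542 with AII, 3.70, 3.17, 3.10 and 2.65 with EGF, and 0.591, 3.54 and 3.99 with AII+EGF. EGF lay above control in every library, whereas AII+EGF replicate 1 lay among the controls. The log2 difference was 1.35 with EGF (SE 0.508, adjusted p = 0.459, edgeR) and 1.11 with AII+EGF (95% interval -0.02 to 2.24). PHLDA3, at 13.9 to 21.95 FPM in control, was at 11.05 to 19.6 with EGF and between 11.7 and 14.5 with AII+EGF (log2 differences -0.41 and -0.48, adjusted p = 0.601 and 0.915, edgeR). MCL1 was at 65.8 to 81.9 FPM in control and 71.3 to 77.8 with EGF, a log2 difference of 0.05 (interval -0.16 to 0.27). BCL2L1, BCL2L11, BBC3 and PHLDA1 had log2 differences between -0.20 and 0.48 with EGF or AII+EGF, none near the FDR.

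**Figure D4:**
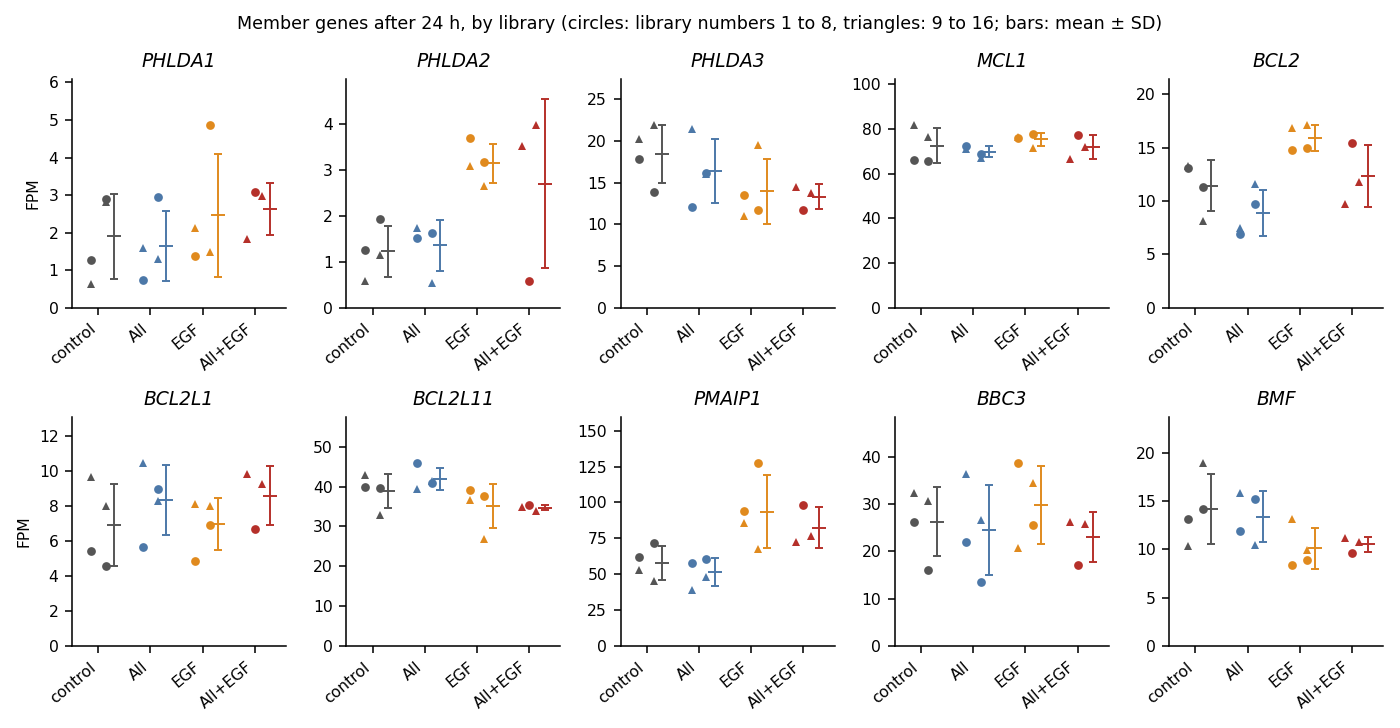
FPM of the 10 genes in each library after 24 h, with 4 libraries per condition and 3 for AII+EGF, symbols as for 6 h and mean ± SD. PMAIP1 and PHLDA2 have their highest means with EGF or AII+EGF, and MCL1 lies between 65.8 and 81.9 FPM throughout.

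The change of the effects from 6 h to 24 h was tested in a joint fit at an FDR under 0.05. For EGF, 0 of 10 genes differed (background 0.173%, 0 by DESeq2), and for AII+EGF also 0 (background 0.123%, 0 by DESeq2). An unadjusted p under 0.05 was reached by 3 of the 10 genes in each, against 10.1% and 7.49% of the 21932 genes tested. The largest difference was that of BCL2 with AII+EGF, which was -0.87 on the log2 scale (SE 0.249, unadjusted p = 0.00132, adjusted p = 0.228, edgeR). For BMF with AII+EGF it was 0.71 (SE 0.256, adjusted p = 0.434, edgeR). That BCL2 and BMF were called after 6 h and not after 24 h is therefore not shown to be a difference between the time points. The joint fit shared its estimate of spread over both sets of libraries, whose biological coefficient of variation was 10.6% and 29.1%. Each time point is also its own set of libraries, so time and set cannot be told apart.

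Among the other genes of the BCL2 family, 13 of 16 were tested after 6 h and BOK, a relative of BAX and BAK1, was the one called. BOK was at 2.71 to 5.09 FPM in control, 6.16 to 8.22 with EGF and between 6.72 and 12.2 with AII+EGF, and rose by 1.12 on the log2 scale with EGF (SE 0.245, adjusted p = 0.00612, edgeR) and by 1.43 with AII+EGF (SE 0.242, adjusted p = 0.000474, edgeR). The median log2 fold change of the 13 genes was 0.01 with EGF and 0.06 with AII+EGF, against -0.01 for all genes in both. Of 15 tested genes of the caspase pathway, 0 were called with EGF or AII+EGF in edgeR, with 1 past the FDR with EGF, CYCS (cytochrome c, 0.41, adjusted p = 0.0144), and medians of -0.06 and -0.02.

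Of 15 p53 target genes, 0 were called with EGF and 1 with AII+EGF. This was FAS, the death receptor, at 25.5 to 33.8 FPM in control and 15.3 to 19.7 with AII+EGF, which fell by 0.69 on the log2 scale (SE 0.138, adjusted p = 0.00266, edgeR). The medians were -0.09 and -0.08. CDKN1A, the cell cycle inhibitor p21, passed the FDR upwards (0.39 with EGF and 0.45 with AII+EGF, adjusted p = 0.0214 and 0.00891, edgeR). CCNG1 passed it downwards (-0.39 and -0.44, adjusted p = 0.00226 and 0.000559, edgeR). With the FDR alone, 1 of the 15 genes was higher and 1 lower with EGF (background 3.6% and 2.37%). With AII+EGF, 1 was higher and 2 were lower (4% and 2.11%). The part of p53 was not tested.

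Output genes of the ERK pathway were called in 4 of 7 tested with EGF and in 4 with AII+EGF, all higher. Of all genes tested, 1.73% and 1.95% were called. The median log2 fold changes of the list were 0.79 and 0.94. The list was chosen with earlier results of these data known, so its calls are a description and not a test. EPHA2, a receptor tyrosine kinase, rose by 1.00 and 1.32 (adjusted p = 0.000164 and 2.89e-06, edgeR). SPRY2 and DUSP4, feedback inhibitors of the pathway, rose by 0.75 and 0.79 with EGF (adjusted p = 0.00209 and 0.0074, edgeR). ETV5, an ETS factor, was at 0 to 0.319 FPM in control and 6.87 to 9.94 with EGF (adjusted p = 9.88e-08, edgeR). EPHA4 passed the FDR downwards (-0.52, adjusted p = 0.0019). EGR1, an immediate early transcription factor, rose by 4.48 with EGF (SE 0.174, adjusted p = 2.37e-14, edgeR).

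Of 8 tested stress genes driven by ATF4 and CHOP, which can also act on PMAIP1, BBC3 and BCL2L11, 0 were called with EGF after 6 h and TRIB3 with AII+EGF (0.66, SE 0.196, adjusted p = 0.0454, edgeR), a call lost in 10 of 16 fits that left out 1 library (adjusted p up to 0.145). The list medians were 0.14 and 0.18. After 24 h ASNS, asparagine synthetase, rose with EGF (0.96, adjusted p = 0.0374, edgeR) and with AII+EGF (1.34, adjusted p = 0.00177, edgeR), and ATF4 with AII+EGF (0.67, adjusted p = 0.0206, edgeR). Without the 2 libraries in which U1 took over 50% of the counts, AII replicate 3 and AII+EGF replicate 4, ASNS with EGF (adjusted p = 0.0765, edgeR) and ATF4 (adjusted p = 0.22, edgeR) missed the FDR, as they did in 10 and 6 of the 15 fits that left out 1 library. Of 5 tested imprinted genes of 11p15.5, the region of PHLDA2, 0 were called with EGF or AII+EGF after 6 h in edgeR, with medians of -0.17 and -0.14. IGF2 passed the FDR (1.59 with EGF, adjusted p = 0.014, edgeR) at a mean below the FPM limit.

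**Figure D5:**
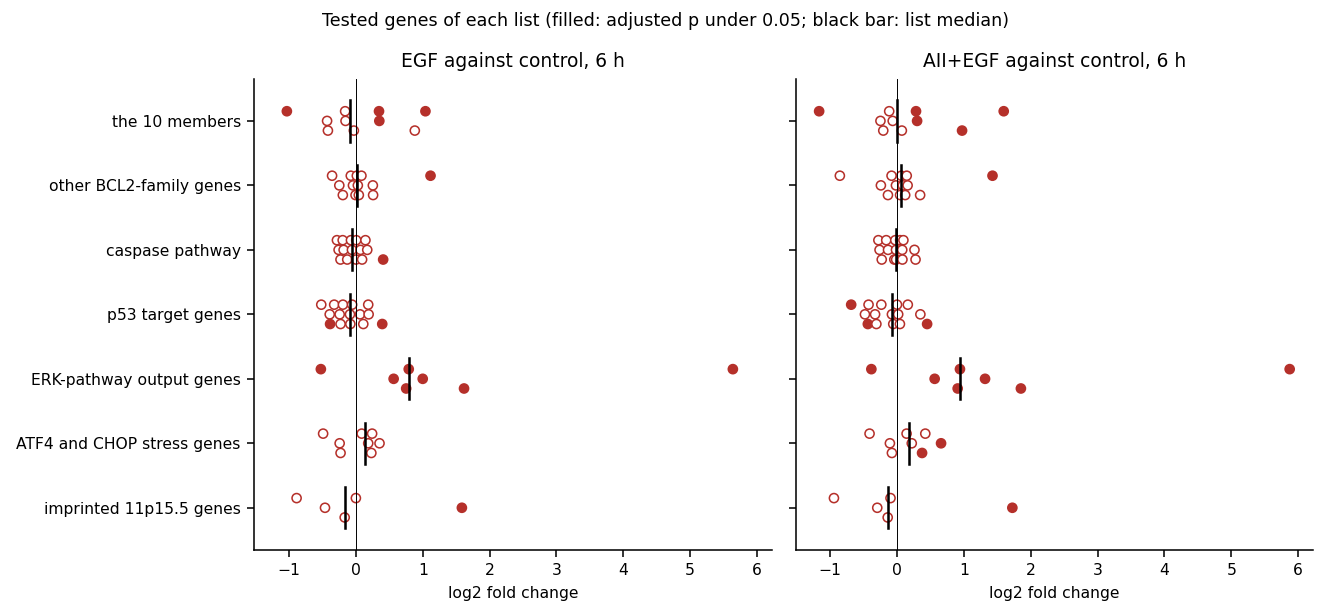
Log2 fold change of every tested gene of each list with EGF (left) and AII+EGF (right) after 6 h, filled where the adjusted p from edgeR was under 0.05, with the list median as a black bar. ERK output genes lie mostly above 0, whereas the medians of the 10 genes, the other BCL2-family genes and the caspase and p53 lists lie near 0.

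For the genes called, the genes whose log2 FPM followed them most closely over the 16 libraries after 6 h were sought among about 13000 genes with a mean above 5 FPM. BCL2 was followed by SPRED2, CCND1 and FAM189A1 (Pearson's r 0.936, 0.936 and 0.935), BMF by HCN3, ZFP14 and DNAJC13 (0.941, 0.934 and 0.931), and PHLDA2 by MSN, ELF4 and SKIDA1 (0.864, 0.859 and 0.846). These values are across libraries that share conditions, depth and series, and describe likeness of pattern.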

How the data were processed

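Total RNA was depleted of rRNA and sequenced as paired ends on an Illumina HiSeq2000. Per the submitters' processing notes and the methods, the authors used Trim Galore with cutadapt 1.8.1, TopHat2 2.0.14 (hg19) and featureCounts 1.4.6 (the series text names HISAT2 as mapper) and deposited raw counts per gene; the strand setting is not given in the sources used here. Of 32 labelled libraries, 31 had a column; 8 columns of the 24 h table are named as filtered, without explanation. From the counts, TMM, filterByExpr and edgeR 4.0.16 quasi-likelihood tests (R 4.3.3) were run, 1 fit per time point with all 4 conditions, tested on simulated data. Groups come from the labels, and replicates were numbered in accession order. Named were the 10 genes, up to 4 called genes per list and the 3 most similar genes of each called gene; CYCS, CDKN1A, CCNG1, EPHA4 and IGF2 were chosen after their values were seen. Genes and lists were chosen with earlier results of these data known. Alternatives were DESeq2 1.42.0, its size factors, no low-count filter, other thresholds, protein-coding genes only, a block for the run of library numbers, each library left out and, added after seeing the data, the 2 libraries rich in U1 left out. One gene of the list of markers of other cell types is not reported here.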

Additional observations from a re-analysis of the deposited data

Results flagged for a closer look

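Within a condition, the value farthest from the others was set against Dixon's critical value in 70 groups of 4 libraries, of which chance flags about 3.5. There were 2 such values, both after 6 h with EGF. BCL2L11 in EGF replicate 4 (79.1 FPM against 71.0 to 72.2 in the others) had a gap of 0.849 of the group's range, and BMF in EGF replicate 2 (11.8 FPM against 9.58 to 9.94) a gap of 0.837.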

How the results depend on the processing

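The calls of BCL2 and BMF with EGF and of BCL2, BMF and PHLDA2 with AII+EGF after 6 h held in number under every alternative with the fold and FPM thresholds (2 and 3 of the 10 genes), and with the FDR alone 4 and 5 passed. After 24 h, 0 became 1 with EGF without the low-count filter and with the library block, and 1 with AII+EGF with the block, each time PMAIP1. Over all genes, the calls in these fits rose as well. With EGF they went from 7 to 54 without the filter and to 35 with the block. With AII+EGF they went from 6 to 32 with the block. The cause was not tested. PHLDA3 with EGF after 6 h passed the FDR without the low-count filter (adjusted p = 0.0185, edgeR) and with protein-coding genes only (0.0321), and BBC3 without the filter (0.0303). Of 1574 values over 75 results, 37 reversed, 36 weakened and 13 strengthened, and 49 results kept direction and side throughout. The reversals were of differences that missed the FDR, the largest being that of PHLDA1 with EGF after 24 h (0.38, adjusted p = 0.90, edgeR). BCL2L11 for AII+EGF against EGF after 24 h, at -0.013, was 0.00925 without the filter, 0.00991 with the block and 0.00871 without the U1-rich libraries. Leaving out 1 library at a time reversed the sign of some differences, within the ranges given here. With EGF after 6 h this was BCL2L1 (-0.15 to 0.055). With AII+EGF after 6 h these were BBC3 (-0.27 to 0.034), BCL2L1 (-0.0042 to 0.15) and PHLDA1 (-0.23 to 0.057). For AII+EGF against EGF after 6 h this was PHLDA1 (-0.070 to 0.18). With EGF after 24 h these were BBC3 (-0.0023 to 0.32), BCL2L1 (-0.14 to 0.23) and PHLDA1 (-0.18 to 0.65). With AII+EGF after 24 h these were BCL2 (-0.079 to 0.26) and MCL1 (-0.068 to 0.048). For AII+EGF against EGF after 24 h these were BCL2L11 (-0.12 to 0.042), BMF (-0.029 to 0.20), PHLDA1 (-0.083 to 0.66), PHLDA2 (-0.68 to 0.26), PHLDA3 (-0.17 to 0.14) and PMAIP1 (-0.33 to 0.0056). Counts of called genes over all genes after 24 h moved more, from 7 with EGF to between 2 and 54, and from 6 with AII+EGF to between 2 and 121. Replicate numbers are absent from the labels, so libraries were not paired. PHLDA1 and PHLDA2 had 12 to 38 and 6 to 36 counts per library after 6 h, so their intervals were wide. PHLDA2 was called with AII+EGF at these counts, and for PHLDA1 differences within its intervals are not excluded.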
